A study of Mus musculus with 15 samples.

Results

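4930529M08Rik and Crnkl1 are neighbouring mouse genes that lie head to head on chromosome 2, with starts that overlap in the GENCODE annotation and not in the RefSeq one. They are 2 of the 38283 genes in the expression table, and both were taken by their symbols. 4930529M08Rik, which later annotation names Cfap61, was chosen by its FPKM values, which were higher in delta than in alpha or beta cells, so its delta cell values are given below as a description without a test. Crnkl1 was taken because it overlaps 4930529M08Rik by GENCODE, and its 3 comparisons were tested.

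CFAP61 is a protein of motile cilia and flagella. It belongs to the calmodulin- and radial spoke-associated complex of the axoneme, where CFAP91 and CFAP251 are its partners, and it is best known from sperm flagella and from cells with beating cilia. CRNKL1, the crooked neck-like protein, is a splicing factor that associates with the PRPF19 complex of the spliceosome and is needed by all cells. Pancreatic delta cells secrete somatostatin, which restrains insulin release from beta cells and glucagon release from alpha cells. Islet endocrine cells carry a primary cilium, a sensory organelle, and share some axonemal genes and RFX transcription factors with cells that have motile cilia.

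RNA was sequenced from 15 samples of sorted islet cells, all on a C57BL/6 background. Alpha cells (n = 5) were the fluorescent cells of Glu-Venus mice, in which the proglucagon promoter drives the Venus fluorophore. Beta cells (n = 4) were Venus-negative cells of the same line, gated on high autofluorescence and scatter. Delta cells (n = 6) were sorted from mice labelled Sst-CreXROSA26EYFP/EYFP, in which Cre recombinase under the Sst promoter switches on EYFP. Each sample was a pool of islets from several mice, so p values measure the spread between pools. Mouse line and cell type both set the delta samples apart from the rest and cannot be told apart. Sst, Gcg and Ins2 were each highest in the cells labelled for them, while Ppy, given below, was high in both alpha and delta cells. Gcg was between 184426 and 344947 FPKM in alpha cells and between 236 and 767 in delta cells. Ins2 was between 91248 and 638871 FPKM in beta cells and between 3803 and 7190 in delta cells. Sst was between 101492 and 266276 FPKM in delta cells, between 1139 and 2427 in alpha cells and between 37.9 and 461 in beta cells, and Hhex, a delta cell transcription factor, was between 42.1 and 93.2 FPKM in delta cells and at most 2.55 FPKM in the other cells. FPKM is a count of fragments scaled by the length of the transcript and by the mapped fragments of the library. In sorted cells measured in bulk, fewer cells of one type and less RNA per cell cannot be told apart.

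In the GRCm38 annotation of GENCODE M21, Crnkl1 (ENSMUSG00000001767) lies on the minus strand of chromosome 2 from 145917479 to 145935014. 4930529M08Rik (ENSMUSG00000037143) lies on the plus strand from 145934784 to 146215039, a span of 280256 nt. The spans share 231 nt, of which 57 nt, from 145934784 to 145934840, are exonic in both genes. These 57 nt lie in the 5′ untranslated part of the first exons and make up 0.537% of the 10606 exonic bases of 4930529M08Rik and 1.48% of the 3844 exonic bases of Crnkl1. Of the 14 transcripts of 4930529M08Rik, 7 start at the shared end and 7 start further downstream, from 146041494 on, where they share no base with Crnkl1. Of the 3 Crnkl1 transcripts, the protein-coding Crnkl1-201 alone contains the shared bases, which are 1.66% of its 3428 nt. The amplification kit did not keep strand, so a read within the shared bases cannot be given to one gene rather than the other. No other gene of the table overlaps the pair.

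**Figure D1:**
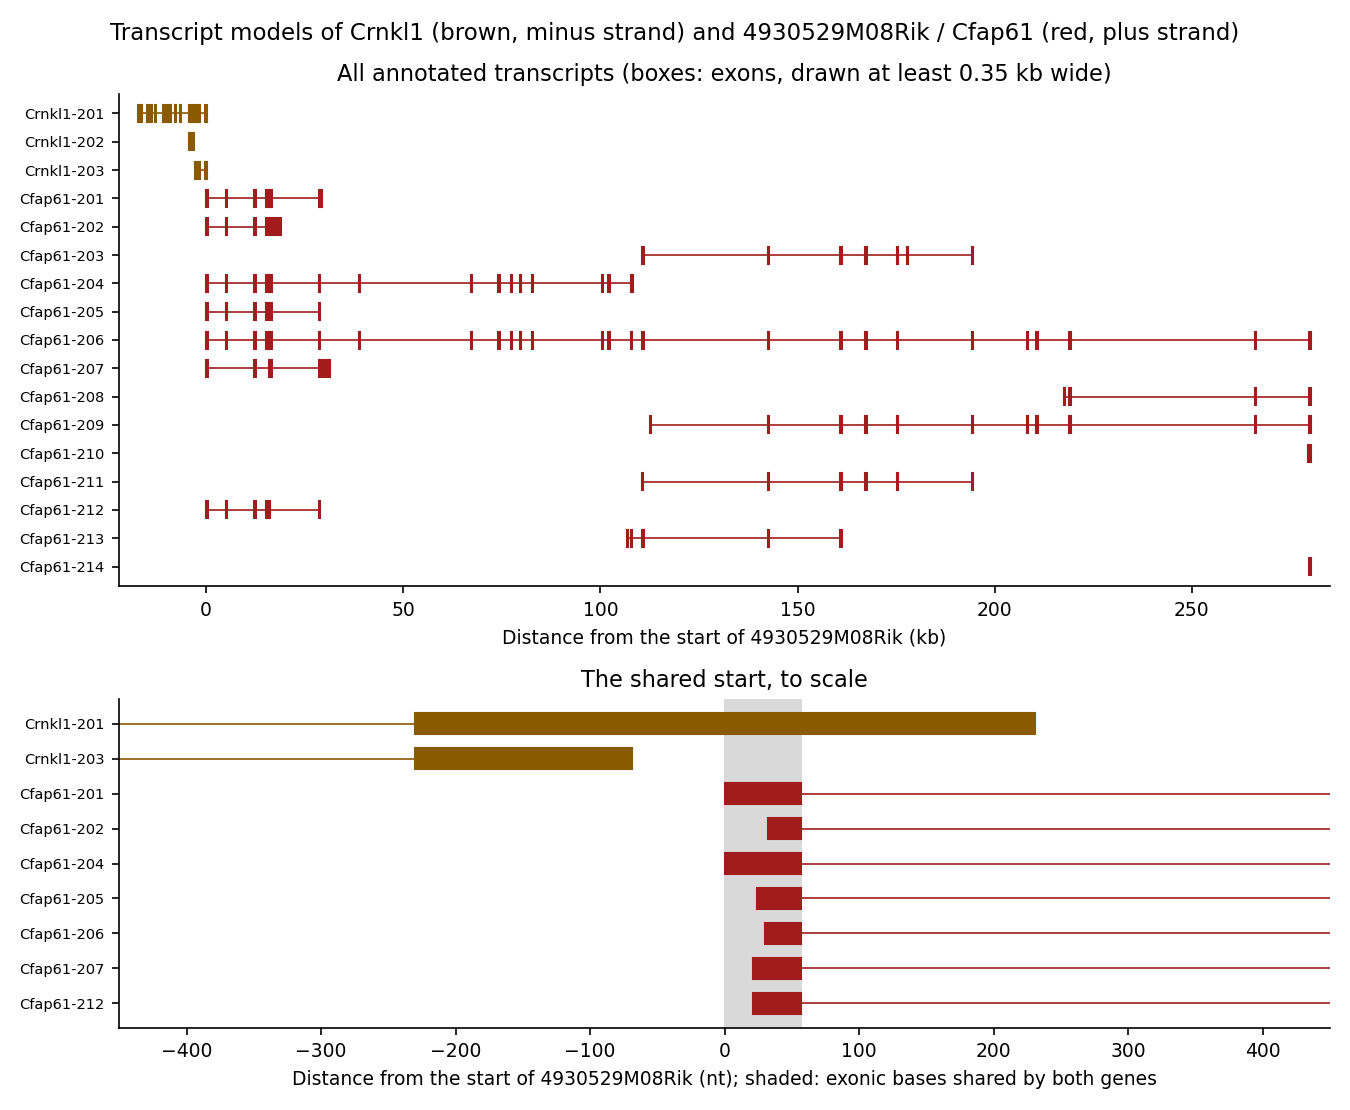
Transcript models of Crnkl1 (brown, minus strand) and 4930529M08Rik (red, plus strand), against distance from the start of 4930529M08Rik, in kb above and in nt below. Boxes are exons and lines introns. The grey band below marks the 57 exonic nt that both genes share, and 7 of the 14 red models lie outside this end.

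A stretch of 30 bases at the shared start is shown because both genes' promoter windows contain it. It is the plus strand, the coding strand of 4930529M08Rik, at chr2:145934768-145934797. Capitals mark a match to the X-box, the motif bound by RFX transcription factors, which switch on many ciliary genes.
X-box stretch: gccgcgtcGTTTCCTTAGCAACtgtgtgcg
The match reads on the minus strand, with the letters GTTGC, any 3 bases, GG, any 1 base and AAC. It runs from position -8 to position 5, counting the annotated first base of 4930529M08Rik as 0. The 2 annotations place the start of Crnkl1 differently. The match, from 145934776 to 145934789, lies inside the gene by its GENCODE start at 145935014 and upstream of it by its RefSeq start at 145934700, from which the Crnkl1 window was drawn. By these RefSeq starts the 2 genes share no base. The letters were chosen after this sequence had been read, and they were searched on both strands of RefSeq promoter windows of GRCm38.p6, which run from 250 nt before to 50 nt after a gene's start. They occurred in 146 of 32851 windows (0.444%) and in 3 of the 66 windows matched to a list of motile cilia genes. The windows of the pair share 183 nt, so the single match in each is the same one. The letters CCGGAA, the core of an ETS factor site, occurred 3 times in each of both windows. They were in 14.9% of all windows and in 14 of the 66. The letters TGTTTAC, a forkhead site as FOXJ1 binds, were found in neither window, in 3.65% of all windows and in 4 of the 66. A match to these letters describes the sequence and does not show that a factor binds there.

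The second sequence is shown because it belongs to the shortest transcript of 4930529M08Rik. Cfap61-214 has a single exon of 183 nt at the 3′ end of the gene, from 146214613 to 146214795, and is the only transcript of the gene below 200 nt, the length to which the amplified cDNA was fragmented. Its 180 coding bases, at chr2:146214613-146214792 on the plus strand, are given in lower case without marks.
Cfap61-214 coding part: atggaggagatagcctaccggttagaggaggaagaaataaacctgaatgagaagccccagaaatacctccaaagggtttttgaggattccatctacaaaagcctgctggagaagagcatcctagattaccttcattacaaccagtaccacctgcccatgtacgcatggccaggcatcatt
A value per kilobase depends on which transcripts the reads are assigned to, and the table gives 1 value per gene. How the level of 4930529M08Rik divides among its 14 transcripts was therefore not tested. A transcript below 200 nt was annotated in 1455 of the 14405 genes tested for differences (10.1%).

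4930529M08Rik was among the genes with the highest FPKM in delta cells, a value that depends on which transcripts its reads were assigned to. Its level was 353, 558, 437, 478, 559 and 710.5 FPKM in delta samples 1 to 6. It was 35.3, 1.93, 4.08, 0.894 and 4.18 FPKM in alpha samples 1 to 5, and 2.59, 2.44, 17.5 and 84.2 FPKM in beta samples 1 to 4. All 6 delta samples lay above every alpha and beta sample, with no overlap. Delta cells had a mean of 516 ± 123 FPKM (SD, n = 6), alpha cells of 9.28 ± 14.6 (SD, n = 5) and beta cells of 26.7 ± 39.0 (SD, n = 4). By mean level it ranked 103rd of 38283 genes in delta cells, with 102 genes above it, whereas it ranked 2150th in beta cells and 4839th in alpha cells. In single delta samples its rank lay between 51 and 223.

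The ratio of the delta mean to the alpha mean was 55.6, and to the beta mean 19.3. The ratios of the medians were 127 and 51.5. The lowest delta sample was 9.99 times the highest alpha sample and 4.19 times the highest beta sample. On the scale of log2(FPKM + 1), the delta mean was 6.51 above the alpha mean and 5.42 above the beta mean. Alpha sample 1 and beta sample 4 carried most of the level in their groups. Without alpha sample 1 the ratio of means of delta to alpha cells was 186, and without beta sample 4 that of delta to beta cells was 68.6. With 4 beta samples the ratio of medians depended on each of them. It was 200.3 without beta sample 3 or 4 and 29.6 without beta sample 1 or 2.

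The gene was not at 0 in any alpha or beta sample, and its order between these cell types was not resolved. Beta cells were 1.09 above alpha cells on the log2 scale (SE 0.896, 95% interval from -0.81 to 2.99; limma, adjusted p = 0.496), the values overlapped, and the difference was smaller than the spread between samples. In this comparison 7.66% of the 14405 genes tested were called, that is, had an adjusted p under 0.05, with 2.84% higher and 4.82% lower in beta cells. Beta sample 4, at 84.2 FPKM, set much of this difference, which was 0.14 without it (limma, adjusted p = 0.974). The order of the levels was therefore delta cells first, with beta and alpha cells not separated from each other.

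The alpha and beta samples with the higher levels of 4930529M08Rik were not those with the most Sst. Alpha sample 1 had 1177 FPKM Sst, against 1139 to 2427 in the alpha samples as a whole, and 0.334 FPKM Hhex. Beta samples 3 and 4 had 37.9 and 71.2 FPKM Sst, the lowest of the beta samples, and 0.00654 and 0.0458 FPKM Hhex. Per 1000 FPKM of Sst, the level of 4930529M08Rik was between 1.36 and 6.61 FPKM in delta samples. It was 30.0 in alpha sample 1 and 0.785 to 2.67 in the other alpha samples, and 28.8, 5.28, 462 and 1183 in beta samples 1 to 4. Alpha sample 1 and beta samples 1, 3 and 4 thus held more 4930529M08Rik relative to Sst than any delta sample did. In beta sample 1 this ratio came from 2.59 FPKM beside 89.8 FPKM of Sst. The part of carried-over delta cells in these levels was not tested.

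**Figure D2:**
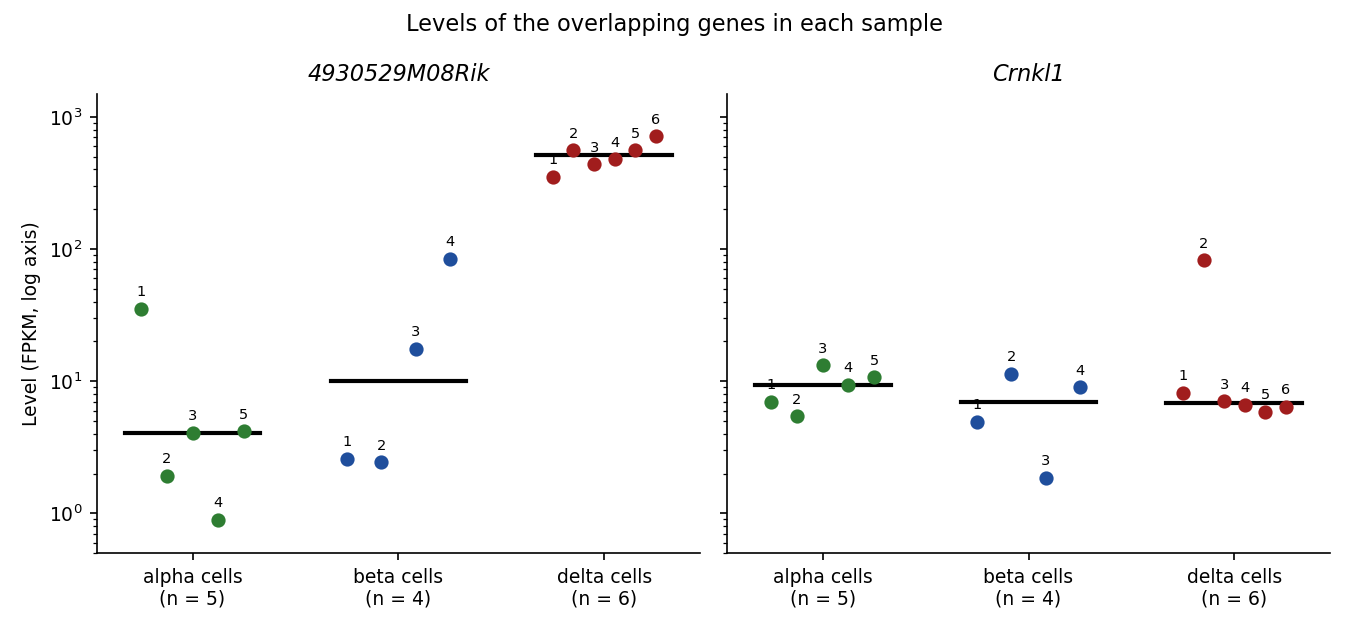
Level of 4930529M08Rik (left) and Crnkl1 (right) in FPKM on a log axis, for alpha (n = 5), beta (n = 4) and delta cells (n = 6). Each point is a sample with its replicate number, and bars are medians. All delta points of 4930529M08Rik lie above its other points, and for Crnkl1 delta sample 2 alone stands apart.

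Crnkl1 showed no such pattern. Its level was 6.99, 5.41, 13.2, 9.40 and 10.7 FPKM in alpha samples 1 to 5 and 4.92, 11.4, 1.86 and 8.98 FPKM in beta samples 1 to 4. In delta samples 1 to 6 it was 8.18, 82.1, 7.03, 6.62, 5.86 and 6.43 FPKM. The 3 cell types overlapped, and 5 of the 6 delta samples lay between 5.86 and 8.18 FPKM, inside the range of the beta samples. Delta sample 2, at 82.1 FPKM, was far from the others, and it raised the delta mean to 19.4 ± 30.7 FPKM (SD, n = 6), beside an alpha mean of 9.13 ± 3.05 (SD, n = 5) and a beta mean of 6.79 ± 4.24 (SD, n = 4). The median of delta cells was 0.726 times that of alpha cells and 0.982 times that of beta cells.

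No comparison of Crnkl1 passed the threshold of adjusted p under 0.05. The log2 difference between delta and alpha cells was 0.24 (SE 0.591, 95% interval from -1.01 to 1.50; limma, adjusted p = 0.903), where 6.81% of all genes tested were called. Between delta and beta cells it was 0.77 (SE 0.630, 95% interval from -0.57 to 2.11; limma, adjusted p = 0.464), where 14.7% were called. Between beta and alpha cells it was -0.53 (SE 0.655, 95% interval from -1.92 to 0.86; limma, adjusted p = 0.675). Without delta sample 2 the difference between delta and alpha cells turned to -0.32 (limma, adjusted p = 0.712) and that between delta and beta cells was 0.20 (limma, adjusted p = 0.802), so the positive sign against alpha cells rested on that sample. The intervals still contain differences of 2-fold in both directions against alpha cells, and the levels are not shown to be equal.

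The delta cell excess of the pair lay in the values of 4930529M08Rik, while Crnkl1 passed no test. Per length, the level of 4930529M08Rik was 43.1, 6.80, 62.1, 72.2, 95.5 and 110.5 times that of Crnkl1 in delta samples 1 to 6. The ratio was 5.05, 0.356, 0.310, 0.0952 and 0.391 in alpha samples 1 to 5 and 0.525, 0.214, 9.41 and 9.38 in beta samples 1 to 4. Crnkl1 was thus the higher of the pair in 4 of 5 alpha samples and 2 of 4 beta samples, and 4930529M08Rik was the higher in all 6 delta samples. The ratio of delta sample 2 lay below those of beta samples 3 and 4 because its Crnkl1 level was high. Delta sample 2, with the highest Crnkl1 level, had 558 FPKM of 4930529M08Rik, close to the 559 FPKM of delta sample 5, where Crnkl1 was at its lowest delta level of 5.86 FPKM.

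The depth behind the Crnkl1 values could be judged in 5 samples, where low values of genes with a single transcript fall on steps of whole reads. The steps imply 7.48 M reads in alpha sample 2 and 10.7, 9.80, 30.5 and 25.3 M reads in delta samples 1 to 4, and for 10 samples no step was resolved. At these depths Crnkl1 corresponds to 130 reads in alpha sample 2 and to 283, 2596, 692 and 540 reads in delta samples 1 to 4. Over all genes tested, 128 (0.889%) were in delta sample 2 more than 5 times every other delta sample, against 80 to 120 in each of the others. By the same measure beta sample 2 stood apart in its group, with 802 genes (5.57%) against 156 to 223 in the other beta samples. Without it the log2 difference between delta and beta cells was 4.82 for 4930529M08Rik and 1.06 for Crnkl1 (limma, adjusted p = 0.304). The amplified reads carry no molecular identifiers, so the read numbers are not numbers of molecules.

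The levels were also read within sets of samples that differ in their ribosomal protein RNA. The FPKM of 85 ribosomal protein genes summed to more than 50000 in delta samples 1 and 2, beta sample 2 and alpha samples 1 to 3, and to less in the other 9, a limit set with the values known. 4930529M08Rik was at a mean of 456 FPKM (n = 2) in the delta samples of the higher set and 546 (n = 4) in those of the lower set. In alpha cells its means were 13.8 FPKM (n = 3) and 2.54 (n = 2), and in beta cells 2.44 (n = 1) and 34.8 (n = 3). Since the lowest delta sample exceeds every other sample, delta cells are highest in any split, and nothing is read from these means beyond their size. For Crnkl1 the delta means were 45.1 FPKM in the higher set and 6.48 in the lower set, against 8.53 and 10.0 in alpha cells and 11.4 and 5.25 in beta cells. The lower set does not hold delta sample 2.

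Markers of other pancreatic cells were read beside the members, from a list of 25 genes. Of the 4 acinar markers, 1 gene, the elastase Cela1, was called higher in delta cells against both alpha and beta cells (5.33% and 11.7% of all genes tested were), and the summed acinar level was 18.5 to 106 FPKM in delta, 0.0651 to 25.2 in alpha and 0.0136 to 7.92 in beta samples. Cela1 made up 17.9 to 95.2 FPKM of the delta sums, and Cpa1, Prss2 and Pnlip together 58.1 FPKM in delta sample 4, 5.07 to 10.5 in delta samples 1 to 3 and 0.545 and 0.320 in delta samples 5 and 6. Of the 3 duct markers, Krt19 was listed at 0 in every delta sample, with a mean of 1.96 FPKM in alpha cells, and Spp1 was at a mean of 26.3 FPKM in delta and 54.8 in alpha cells. Sox9 was at 1.29 FPKM in delta cells and at most 0.0131 FPKM in the others, and reached the limit for testing through delta cells alone. The duct sum was 8.21 to 84.2 FPKM in delta, 15.3 to 160 in alpha and 0.813 to 18.2 in beta samples. Ppy, the hormone of PP cells, was between 10857 and 48600 FPKM in delta cells, between 17728 and 41392 in alpha cells and between 16.9 and 98.1 in beta cells. The 3 endothelial markers summed to 0.101 to 0.996 FPKM in delta samples, at most 0.104 in alpha and at most 0.0902 in beta samples, and the 2 leukocyte markers to at most 2.00 FPKM. Of the 3 fibroblast markers, Col1a1 was listed at 0 in every sample and the sum was 0.848 to 3.79 FPKM in alpha samples, at most 0.0576 in delta and at most 0.00687 in beta samples. The part of these cells in the level of 4930529M08Rik was not tested.

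The other genes near the pair did not share its level in delta cells. Within 1 Mb of either end the table holds 26 further genes, of which 12 were at 0 in every sample and 10 reached a mean above 1 FPKM in a cell type and were tested. Against alpha cells 1 of the 10 was higher in delta cells and 0 were lower, against 5.33% higher and 1.48% lower among all genes tested. Their median log2 difference was 0.03, against 0.13 over all genes. Against beta cells 2 were higher and 0 lower, against 11.7% and 2.99% of all genes, with a median of 0.17 against 0.30. A930019D19Rik reached 1 FPKM through beta cells alone, so it had to be higher there. With it set aside the calls were the same, and the medians became -0.005 (alpha) and 0.25 (beta). Over all genes that reached 1 FPKM in more than 1 cell type they were 0.11 and 0.29.

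Insm1, the gene called against alpha cells, encodes a zinc finger transcription factor of endocrine cell differentiation, and starts 6881 nt after the end of 4930529M08Rik on the same strand. Its level was 53.5, 27.1, 58.9, 30.2, 47.3 and 26.6 FPKM in delta samples 1 to 6, 5.30, 10.8, 3.53, 12.3 and 21.9 FPKM in alpha samples 1 to 5, and 11.5, 29.4, 16.1 and 13.8 FPKM in beta samples 1 to 4. Every delta sample was above every alpha sample, whereas delta and beta samples overlapped. The log2 difference from alpha cells was 1.97 (SE 0.425; limma, adjusted p = 0.00748), and it kept its call under every alternative, with adjusted p between 0.00260 and 0.0277. From beta cells it was 1.16 (SE 0.453; limma, adjusted p = 0.0993), which did not pass. On this scale the difference of Insm1 from alpha cells was 1.97, beside 6.51 for 4930529M08Rik.

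The neighbours called against beta cells were Rin2, a regulator of the small GTPase RAB5, and 6430503K07Rik. Rin2 was higher by 1.24 (SE 0.395; limma, adjusted p = 0.0460) with overlapping values, at 5.07 ± 2.01 FPKM (SD, n = 6) in delta and 1.80 ± 1.84 (SD, n = 4) in beta cells. Its call was lost in 8 of the 10 computations that each left out 1 sample, with adjusted p up to 0.134, and in 6 of the 8 other alternatives. 6430503K07Rik lies within the span of Nkx2-2, an islet homeobox gene, on the opposite strand. Without strand, reads in any bases exonic in both genes cannot be told apart, and such bases were not counted. 6430503K07Rik was higher by 1.89 (SE 0.536; limma, adjusted p = 0.0260), at 36.3 ± 13.9 FPKM (SD, n = 6) in delta and 8.85 ± 3.21 (SD, n = 4) in beta cells. The call was lost in 5 of 10 such computations (without beta sample 1 or 4 or delta sample 1, 5 or 6) and with median-ratio size factors. No neighbour remained called without beta sample 1 or delta samples 1, 5 or 6, and 1 remained without beta samples 3 or 4 or delta samples 3 or 4. Naa20, which encodes the catalytic subunit of an N-terminal acetyltransferase and ends 1053 nt from the 3′ end of Crnkl1, differed by -0.00 from alpha cells and by 0.09 from beta cells (limma, adjusted p = 1 and 0.962). Ralgapa2, Nkx2-2, Nkx2-2as, Xrn2, Plk1s1 and A930019D19Rik were not called in either comparison with delta cells. Ralgapa2 was nevertheless lower in every delta sample (1.61 to 2.93 FPKM) than in any alpha sample (3.92 to 5.15 FPKM).

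**Figure D3:**
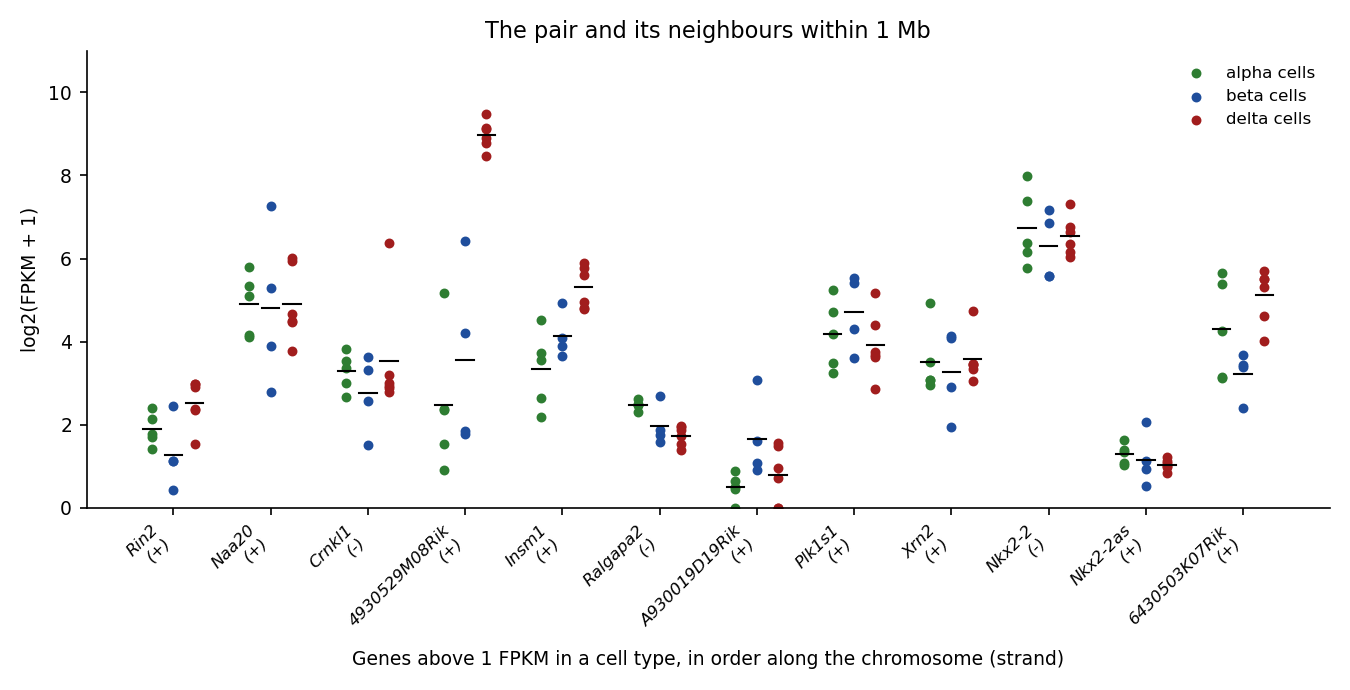
Level of the pair and of the 10 neighbouring genes tested, as log2(FPKM + 1), in order along the chromosome with the strand in brackets. Points are alpha (green, n = 5), beta (blue, n = 4) and delta samples (red, n = 6), and bars are means. The delta samples of 4930529M08Rik stand alone above 8, and Insm1, its next neighbour downstream, is 1.97 above alpha cells.

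Genes of motile cilia were read from a list of 79, since CFAP61 is a protein of motile cilia. Beside axonemal genes the list includes 13 genes of dynein arm assembly and docking and 7 transcription factors. Of the 79 genes, 7 were at 0 in every sample and 35 had a mean above 1 FPKM in a cell type and were tested. Of the 35, 8 reached this limit through delta cells alone, 3 through alpha cells alone and 2 through beta cells alone, and 2454 of all genes tested did so through a single cell type. Such genes had to be higher in that type. Among the other 22, 1 was higher and 0 lower in delta than alpha samples, beside 3.83% and 1.05% of all other genes, with a median difference of 0.38 against 0.11. An unadjusted p under 0.05 was reached by 5 (22.7%), all higher, beside 13.6%. Against beta cells 3 were higher and 0 lower, beside 10.95% and 2.63%, with a median of 0.47 against 0.29, and 4 (18.2%), all higher, had an unadjusted p under 0.05, beside 27.3%. With the 13 included, 2 were higher and 1 lower against alpha cells and 6 and 0 against beta cells, where 5.33% and 1.48%, and 11.7% and 2.99%, of all genes were called. None of the 79 reached the level of 4930529M08Rik, since the highest delta mean on the list was 22.6 ± 6.92 FPKM (SD, n = 6), for the transcription factor Rfx3.

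Wdr52, later Cfap44, an axonemal protein, is one of the 8 and is given as a description. Its level was 1.80, 1.03, 2.00, 1.01, 1.38 and 3.73 FPKM in delta samples 1 to 6, at most 0.138 FPKM in alpha cells and at most 0.351 FPKM in beta cells, and it was listed at 0 in 2 alpha and 2 beta samples. It did not overlap between delta cells and either other cell type. Its mean on the log2 scale was 1.37 above that of alpha and 1.31 above that of beta samples. Tekt2, a tektin of the microtubule doublets, was between 1.88 and 4.69 FPKM in delta cells and at most 0.309 FPKM in beta cells. It was higher by 1.83 (SE 0.370; limma, adjusted p = 0.00317), and this call was kept under every alternative in which it was tested, while its difference of 1.05 from alpha cells did not pass (limma, adjusted p = 0.0931).

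Other called genes of the list were less stable. In delta cells Gm872, later Cfap54, of the central pair, was higher by 1.26 on the log2 scale against alpha cells (limma, adjusted p = 0.0461), and the call was lost in 10 of 11 computations that each left out a sample and in 5 of 7 other alternatives. Ccdc164, later Drc1, of the nexin-dynein regulatory complex, was higher by 1.60 against beta cells (limma, adjusted p = 0.0430), and lost it in 9 of 10 and 5 of 8. Dnahc11, a dynein heavy chain and the gene counted as lower over all 35, reached the limit through alpha cells alone and is given as a description. Its alpha values ran from 0.682 to 15.1 FPKM and its delta values from 0.0194 to 0.71 FPKM. Over all 35 the count called against alpha cells, 3, fell to 1 without delta samples 3, 4 or 5. Against beta cells the count, 6, fell to 3 without beta samples 1 or 3 or delta samples 3 or 4, and to 2 without beta sample 4.

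Of the partners of CFAP61, CFAP91 is listed as Spata26 and CFAP251 as Wdr66. Spata26 was at 1.63 ± 0.409 FPKM (SD, n = 6) in delta, 1.11 ± 0.626 (SD, n = 5) in alpha and 1.28 ± 0.902 (SD, n = 4) in beta samples, and differed by 0.35 (limma, adjusted p = 0.627) and 0.28 (limma, adjusted p = 0.596). Wdr66 was below the limit for testing, with means of 0.0471, 0.0232 and 0.0343 FPKM in the same order. The partners were thus far below the 516 FPKM of 4930529M08Rik in delta cells. Among the transcription factors, Rfx2 was at 2.73 ± 0.892 FPKM (SD, n = 6) in delta and 0.555 ± 0.220 (SD, n = 4) in beta cells, and was 1.23 higher (SE 0.326; limma, adjusted p = 0.0183), a call lost without beta sample 4, with median-ratio size factors, with quantile normalization and under the replicate block (limma, adjusted p up to 0.0807). Rfx3 was at 22.6 FPKM in delta, 18.0 in alpha and 11.1 in beta cells, and passed in neither comparison (limma, adjusted p = 0.681 and 0.193). Foxj1, the master regulator of motile cilia, had a mean of 0.160 FPKM in delta cells, Mcidas of 0.0176 and Myb of 0.00181, while Gmnc and Ccno were listed at 0 in every delta sample.

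Genes of the spliceosome were read beside Crnkl1 from a list of 21 genes, all of which were tested. None was called by limma in either comparison with delta cells, beside 6.81% of all genes against alpha and 14.7% against beta cells. An unadjusted p under 0.05 was reached by 2 in each (9.52%), all of them higher, beside 16.7% and 28.4% of all genes. The median difference was 0.16 from alpha cells, against 0.13 over all genes, and 0.17 from beta cells, against 0.30. The differences ran from -0.54 to 1.33 and from -0.75 to 1.24, so that those of Crnkl1, 0.24 and 0.77, lay inside them.

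**Figure D4:**
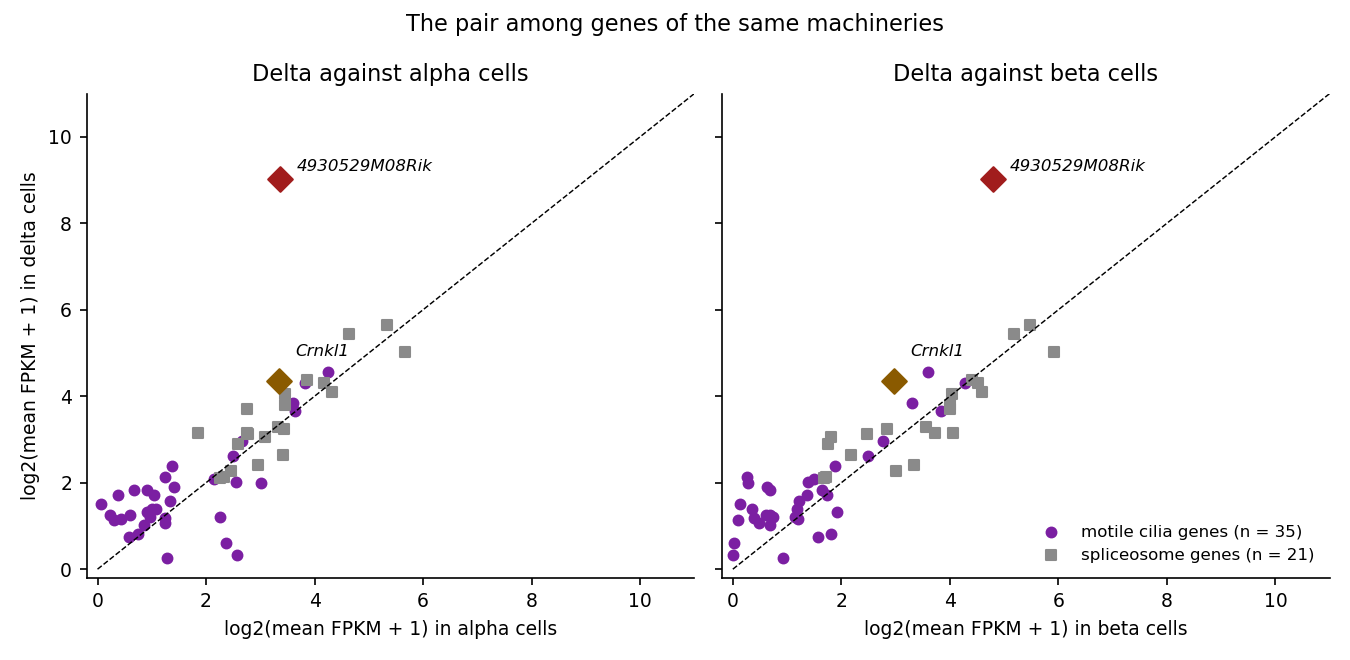
Mean level in delta cells against that in alpha cells (left) and beta cells (right), as log2(mean FPKM + 1), for 35 motile cilia genes (purple), 21 spliceosome genes (grey) and the pair (diamonds). The dashed line marks equal levels. 4930529M08Rik lies far above the line and above every listed gene, while the position of Crnkl1 rests on delta sample 2.

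The genes whose values most resembled those of 4930529M08Rik were found by Pearson correlation of log2(FPKM + 1) over the 15 samples, among the genes tested. They were Magee2 (r = 0.936), Pak1 (0.934), Hspa12b (0.930), Creg2 (0.921) and Pcp4 (0.916). Magee2 is a MAGE family gene, Pak1 encodes a kinase activated by the small GTPases RAC and CDC42, Hspa12b belongs to the HSP70 family, and Pcp4 encodes a small calmodulin-binding protein. Mean levels in delta cells were 8.37 FPKM for Magee2, 11.5 for Pak1, 2.33 for Hspa12b, 5.31 for Creg2 and 123 for Pcp4. All were lower in alpha and beta cells, with means of at most 1.10 FPKM except for Pcp4, at 10.9 and 15.7 FPKM. The samples share their cell type, so any gene high in delta cells alone correlates in this way.

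For Crnkl1 the 5 most similar genes were Zfp870 (r = 0.910), Il12rb2 (0.892), Gm12279 (0.886), Oas1a (0.883) and Gm13688 (0.881). Without delta sample 2 they were Cfdp1 (0.909), Cog2 (0.869), Ncoa5 (0.866), Bicc1 (0.859) and Pdha1 (0.855), and no gene was on both lists. The likeness of Crnkl1 to other genes over 15 samples therefore rested on delta sample 2. For 4930529M08Rik, 3 of the 5 genes (Magee2, Pak1 and Hspa12b) were also among the 5 without that sample.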

How the data were processed

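Delta, alpha and beta cells were grouped by the sample labels. The authors aligned single 50 nt reads to GRCm38 and deposited FPKM per gene (TopHat2 2.0.8 and Cufflinks 2.2.1 in the submitters' processing notes). The annotation release is not given in the sources used here. The authors generated raw counts beside FPKM and compared the cell types with edgeR. Raw counts were not used here. Differences were tested with limma 3.58.1 in R 4.3.3 (lmFit, eBayes with trend) on log2(FPKM + 1), in 1 fit of 15 samples, two-sided, adjusted by Benjamini-Hochberg over 14405 genes with a mean above 1 FPKM in any cell type. This scale understates fold changes of low genes. The fit was tested on simulated data. Gene models were from GENCODE M21, which holds 36425 of the table's genes, and promoters from RefSeq. Other steps used Python 3.11.15, numpy 2.4.6, pandas 2.3.3 and matplotlib 3.10.9. Read steps were searched in 5066 genes with 1 transcript longer than 1000 nt.

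Genes named were the pair, neighbours above 1 FPKM in a cell type, up to 4 called genes per list and direction, the transcription factors of motile cilia, the partners of CFAP61 and the 5 genes most correlated with each member. Members and lists were chosen with earlier results of these data known. Alternatives were a pseudocount of 0.1, no filter or a mean above 5 FPKM, median-ratio size factors, quantile normalization, a fit of 2 cell types alone, the replicate block, the ribosomal set as a covariate, the log2 ratio of mean FPKM, and leaving out each sample.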

Additional observations from a re-analysis of the deposited data

Results flagged for a closer look

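In 36 groups of samples, formed by each gene of the pair and each neighbour tested in each cell type, Dixon's criterion was applied to FPKM. A sample lay far from the rest in 4 groups. For normally distributed values chance flags about 1 in 20 groups, or 1.8 here. This rate need not hold for FPKM, and the criterion was not applied on the log2 scale. 4930529M08Rik in alpha sample 1 was at 35.3 FPKM, and the next alpha sample was at 4.18. Crnkl1 in delta sample 2 was at 82.1 FPKM, and the next delta sample was at 8.18. Xrn2, which encodes an exoribonuclease of transcription termination, was at 29.7 FPKM in alpha sample 3, where the next was at 10.5, and at 25.9 FPKM in delta sample 6, where the next was at 10.1.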

How the results depend on the processing

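4930529M08Rik was chosen for its higher delta values. Its lowest delta sample exceeds every other sample, so leaving out 1 sample could not change its order. The log2 differences are given for their size alone, from 6.12 to 7.18 (alpha) and 4.82 to 6.37 (beta) when 1 sample was left out. Its difference between beta and alpha cells stayed uncalled, from 0.14 to 1.77 (limma, adjusted p from 0.226 to 0.974). Crnkl1 was uncalled throughout. Leaving out 1 sample gave -0.32 to 0.40 between delta and alpha cells, 0.20 to 1.06 between delta and beta cells and -0.82 to -0.11 between beta and alpha cells, and the -0.32 without delta sample 2 was the only reversal. Between delta and alpha cells the 0.24 became 0.09 with median-ratio size factors, 0.03 with quantile normalization, 0.49 with the ribosomal set as covariate and 1.09 as the log2 ratio of means. Between delta and beta cells the 0.77 became 0.44 with either scaling and 1.51 as the log2 ratio of means, and between beta and alpha cells the -0.53 became -0.20 with the ribosomal set as covariate. The count of neighbours called against alpha cells rose from 1 to 2 with median-ratio size factors, quantile normalization or 2 cell types alone (1 higher and 1 lower each) and stayed at 1 with samples left out. Against beta cells it fell from 2 to 1 without a filter or with a mean above 5 FPKM, to 0 with median-ratio size factors, was 3 with quantile normalization (1 higher and 2 lower, from 2 higher and 0 lower), and ranged from 0 to 2 with samples left out. Motile cilia genes called against alpha cells numbered 5 without a filter, 0 with a mean above 5 FPKM, 4 with quantile normalization (1 higher and 3 lower, from 2 higher and 1 lower) and 1 to 4 with samples left out, and against beta cells 0 with a mean above 5 FPKM, 3 with quantile normalization and 2 to 7. Spliceosome genes called against beta cells numbered 1 with the ribosomal set as covariate and 0 to 1 with samples left out. Fewer genes could be tested at the higher limit; otherwise the cause was not tested.

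Same-numbered samples of different cell types correlated between -0.152 and 0.281 in their deviations (5 of 13 pairs above 0.1). The mean was 0.0761, against -0.0161 for pairs with different numbers. The labels do not say whether alpha and beta samples came from the same sorts of Glu-Venus mice, and these correlations cannot decide it. The numbers were not taken as pairs, and the samples were fitted as independent. With the replicate block Crnkl1 differed by 0.37, 0.98 and -0.60 (delta against alpha, delta against beta, beta against alpha; limma, adjusted p = 0.847, 0.381 and 0.623). Under the block the called neighbours against beta cells numbered 1, cilia genes 1 (alpha) and 2 (beta), and spliceosome genes 1 against beta cells.

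Over all genes, calls with a mean above 5 FPKM numbered 518 against 981 (delta against alpha) and 1319 against 2114 (delta against beta). Calls between beta and alpha cells, 1104, numbered 2088 with median-ratio size factors, 1970 with quantile normalization, 520 with 2 cell types alone, and 651 to 1698 with 1 sample left out. Their split of 409 higher and 695 lower in beta cells went to 1107 and 981 with median-ratio factors and 937 and 1033 with quantile normalization. Median-ratio factors and quantile normalization moved the median of all genes by -0.13 and -0.17 (delta against alpha) and by -0.29 and -0.30 (delta against beta). The split of higher and lower calls went from 768 and 213 to 693 and 334 with median-ratio factors and 618 and 470 with quantile normalization against alpha cells, and from 1683 and 431 to 1354 and 1302, and 1397 and 1348, against beta cells.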

Other observations

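Of the 22 motile cilia genes that reached the limit for testing in more than 1 cell type, 1 was lower in beta than alpha samples and 0 higher, beside 5.04% and 2.54% of all such genes. This was Ccdc164 (log2 difference -2.41; limma, adjusted p = 0.00920). Dnahc11 and Wdr16 reached the limit through alpha cells alone, with alpha means of 4.92 and 4.14 FPKM and beta means of 0.00679 and 0.0203. Ccdc164 had an alpha mean of 7.09 ± 6.21 FPKM (SD, n = 5) and a delta mean of 2.98 ± 1.58 FPKM (SD, n = 6), with overlapping values. Gm872 was at 2.34 ± 1.53 FPKM (SD, n = 4) in beta and 2.30 ± 1.42 (SD, n = 6) in delta cells.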
